A study of Mus musculus with 17 samples.

Results

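Gene expression of mature spleen granulocytes was set against that of bone marrow progenitors labelled IRF8 knockout, on 6 Affymetrix perfect-match arrays of the 17 in the study, over all 28898 probe sets with 1 gene symbol. The granulocytes (n = 3 pools) came from wild-type spleen and had been sorted as CD11b- and Ly6C-positive cells without CD11c and without the M-CSF receptor. The progenitors were myelo-dendritic progenitors, MDPs (n = 3 pools), from bone marrow of mice with the genotype label IRF8-deficient, sorted as CD117- and M-CSF receptor-positive cells without lineage markers, Sca1 or CD127. Each pool held cells of 5 mice, and the mice were 6 to 10 weeks old. The sources used here give neither the allele nor its disrupted part, so the progenitors are called knockout-labelled. The study used such mature-cell profiles to sort the genes that differed between IRF8-deficient and wild-type MDPs into macrophage, granulocyte and dendritic cell groups. Cell type, tissue (spleen or bone marrow) and genotype all differ between the 6 arrays compared and cannot be told apart. Spleen macrophages and wild-type MDPs (n = 3 pools each) were read beside them, because the macrophages share the spleen and the wild-type genotype with the granulocytes, and the wild-type MDPs share the marrow and the sort gate with the knockout-labelled ones.

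MDPs are dividing marrow cells that give rise to monocytes, macrophages and dendritic cells. Granulocytes, of which neutrophils are the most common, are short-lived cells that no longer divide once mature, migrate towards bacterial and complement signals, and kill microbes with stored granule proteins and an oxidase. The primary granules of neutrophils are filled first, at the promyelocyte stage, and the secondary and tertiary ones later in maturation. IRF8 is a transcription factor that favours monocyte and dendritic cell fates over the neutrophil fate.

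All levels are log2 values from the authors' RMA step, and each difference is the granulocyte mean minus the knockout-labelled mean. Calls were made where limma's fit over the 17 arrays gave an adjusted p under 0.05, and a number in brackets after a gene name is its log2 difference. Each SE and p draws on the spread in all 6 groups of that fit, including groups outside the comparison. Of the 28898 probe sets 11553 were called (40.0%), 5469 higher and 6084 lower in granulocytes. Read as 1 probe set per gene, 3381 of 17097 genes were higher (19.8%) and 3888 were lower (22.7%), with a median difference of 0.09 over all genes. That split depends on the scaling. With each array centred on 9 ubiquitous genes the median over all genes shifted by 0.68, and 81.7% of the called genes were higher, against 46.5% without that centring. Over probe sets the arrays correlated at 0.959 to 0.968 among granulocyte pools, at 0.972 to 0.976 among knockout-labelled pools, and at 0.797 to 0.853 between the groups, across probe sets that are not independent replicates. The median SD of a probe set between pools was 0.252 in granulocytes and 0.205 in knockout-labelled MDPs, and granulocyte pools 1 and 2 had the lowest array weights of the 6 (0.452 and 0.562). The lower quartile of the 6 arrays lay between 3.20 and 3.42, and no linear fold is given against a level close to that. A log2 difference against such a level is one of deposited values whose low end is limited by background, so its size is uncertain. The genes picked below by their largest deposited differences include such ones, and their place in that order is uncertain too.

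**Figure D1:**
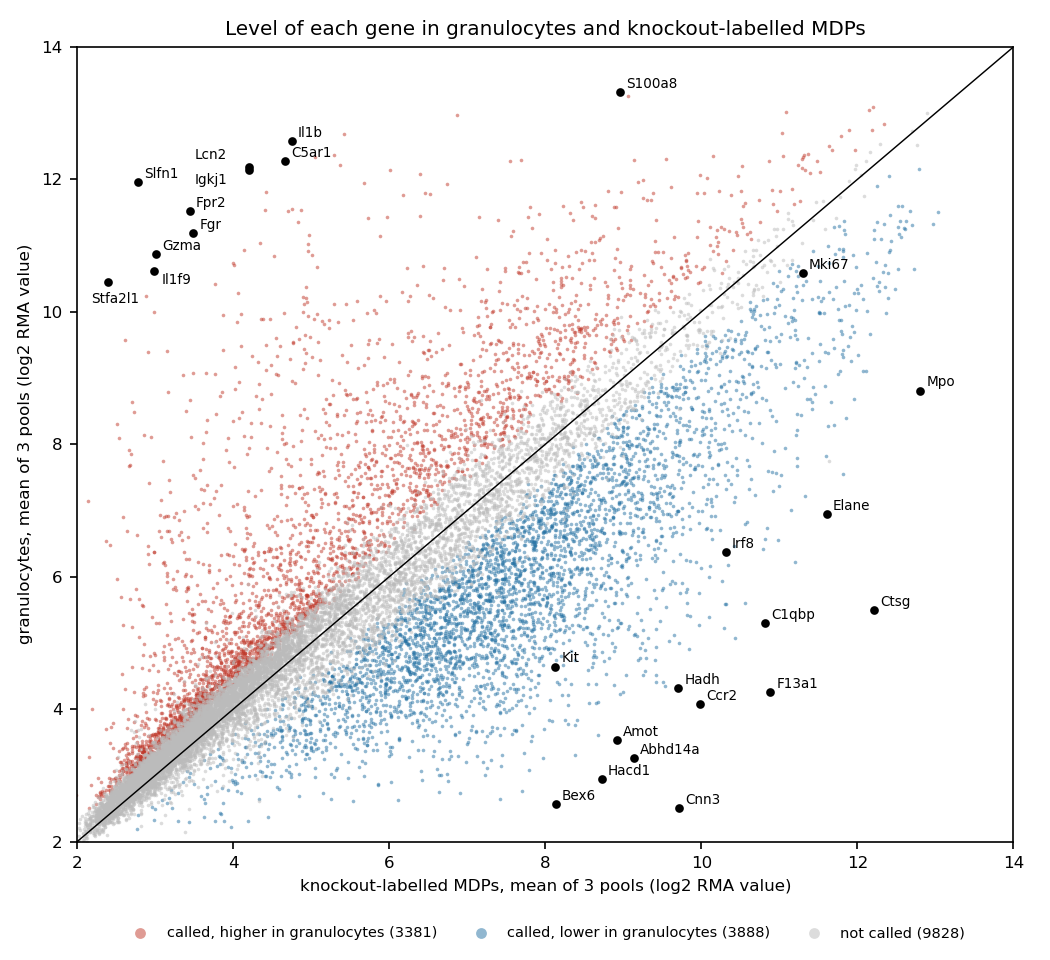
Mean level of each of 17097 genes in 3 granulocyte pools (vertical axis) against 3 knockout-labelled MDP pools (horizontal axis), both as log2 RMA values, with genes called higher in red (3381), called lower in blue (3888) and not called in grey. The named points include the 10 largest differences each way, and the line marks equal levels.

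**Figure D2:**
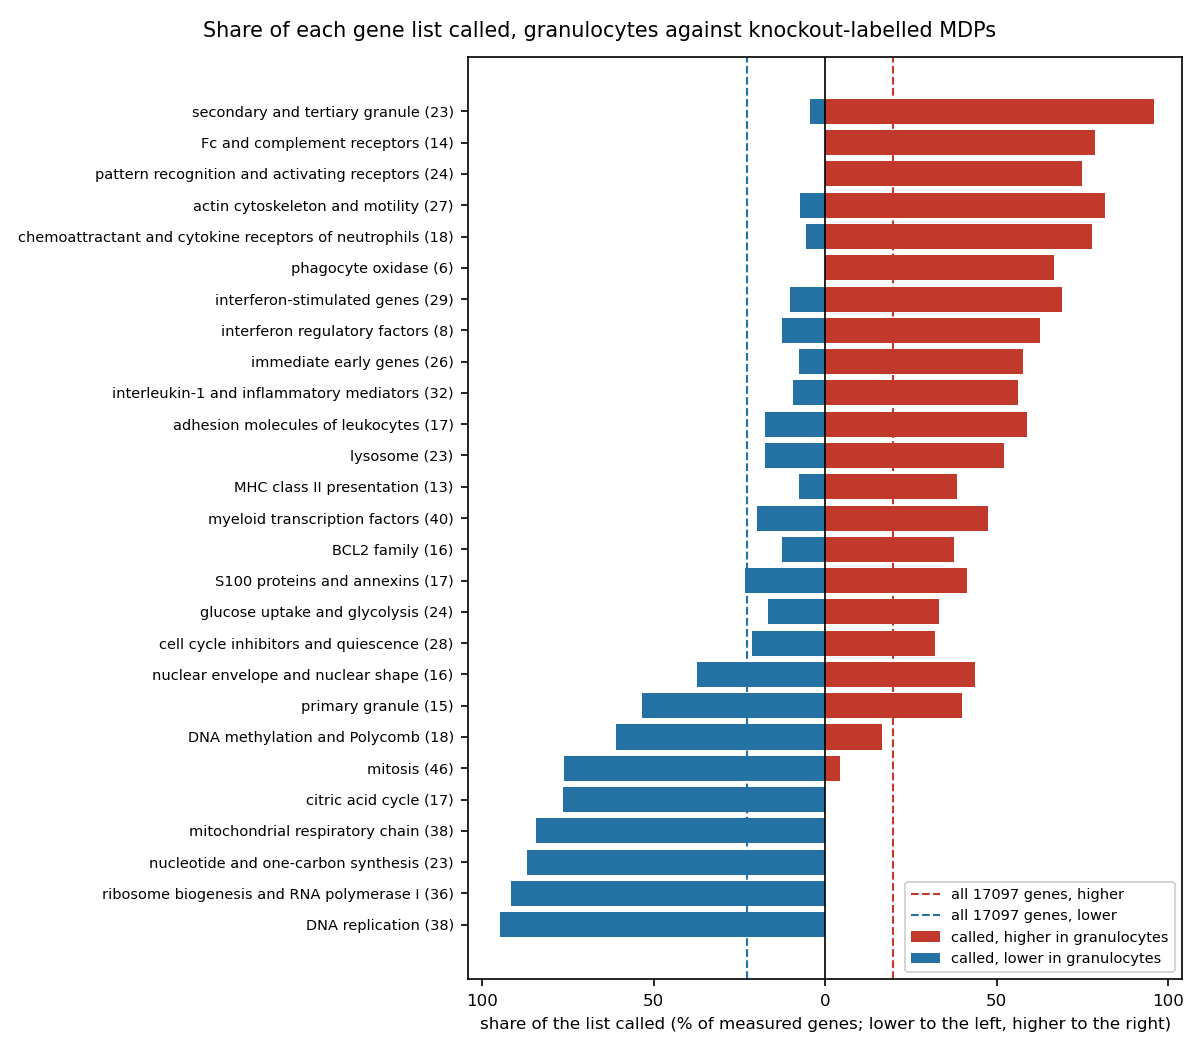
Share of the measured genes of each of 27 gene lists called higher in granulocytes (red, to the right) or lower (blue, to the left), in percent, with the number of measured genes in brackets. Dashed lines give the shares over all genes, 19.8% higher and 22.7% lower. Secondary granule genes and receptors stand at the top, and DNA replication, ribosome biogenesis and nucleotide synthesis at the bottom.

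Irf8 itself was lower in granulocytes. Its level was 6.04, 5.36 and 7.70 in granulocytes, against 10.32, 10.42 and 10.18 in knockout-labelled MDPs (log2 difference -3.94, SE 0.42, adjusted p = 3.14e-06). The groups do not overlap, but granulocyte pool 3 stood well above the other granulocyte pools. Wild-type MDPs had 10.34 ± 0.19 and macrophages 9.17 ± 0.27, and the test of knockout-labelled against wild-type MDPs was not passed (adjusted p = 0.996). The position of the Irf8 probe sets with respect to the disruption is unknown here, so their levels do not check the label. A second Irf8 probe set differed by -3.62. In such bulk samples fewer expressing cells and less RNA per cell cannot be told apart.

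The genes of the sort gates were then read. Itgam, which encodes CD11b, was 8.21, 8.16 and 7.96 in granulocytes, against 2.99, 3.34 and 2.503 in knockout-labelled MDPs (log2 difference 5.17, SE 0.24, adjusted p = 1.39e-09), and all knockout-labelled levels were within or below the range of the lower quartiles. Kit, which encodes CD117, was lower, at 4.61, 4.13 and 5.18 in granulocytes, against 8.08, 8.21 and 8.08 in knockout-labelled MDPs (log2 difference -3.48, SE 0.23, adjusted p = 3.93e-08, 11.2-fold lower). Itgax, the CD11c gene, was higher (log2 difference 2.93, SE 0.30, adjusted p = 2.11e-06) although the granulocytes had been sorted as CD11c-negative, at 6.94, 8.37 and 8.02 in granulocytes, against 5.03, 4.76 and 4.76 in knockout-labelled MDPs, with pool 1 below the other granulocyte pools. Csf1r, the M-CSF receptor gene, was 7.16, 8.19 and 8.56 in granulocytes, against 7.47, 7.39 and 7.19 in knockout-labelled MDPs (log2 difference 0.62, adjusted p = 0.0773). It was thus not called, although MDPs were sorted for its protein and granulocytes against it, and without granulocyte pool 1 it was called higher (adjusted p = 0.000383). Ly6c1 (Ly6C) differed by -0.41 (adjusted p = 0.406), and without granulocyte pool 1 it was called lower (adjusted p = 0.0308).

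The granulocyte label was checked against neutrophil markers. All 11 measured neutrophil markers were higher in granulocytes, with a median difference of 6.19, and their mean was 11.92, 11.72 and 11.84 in granulocytes, against 6.16, 5.59 and 6.19 in knockout-labelled MDPs. Without granulocyte pool 2 or pool 3, 10 of the 11 were called, and 9 without knockout-labelled pool 2. The mean over the list left no overlap between the groups.

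The 15 genes with the largest deposited rises included Slfn1, a Schlafen family gene, at 11.70, 12.13 and 12.04 in granulocytes, against 3.004, 2.54 and 2.78 in knockout-labelled MDPs (log2 difference 9.18, SE 0.69, adjusted p = 1.06e-07). Fpr2, a receptor for formylated bacterial peptides, read 12.004, 11.09 and 11.48 in granulocytes, against 3.92, 2.86 and 3.53 in knockout-labelled MDPs (log2 difference 8.08). Stfa2l1, a stefin-type protease inhibitor gene of neutrophils, read 10.33, 10.46 and 10.55 in granulocytes, against 2.38, 2.36 and 2.44 in knockout-labelled MDPs (log2 difference 8.06, SE 0.12). In each of these 3 genes the knockout-labelled levels were close to the lower quartile or below it, and Fpr2 was highest in pool 1 of them. Il1b, which encodes interleukin-1 beta, was 12.48, 12.74 and 12.53 in granulocytes, against 4.84, 4.66 and 4.74 in knockout-labelled MDPs (log2 difference 7.84, SE 0.20, adjusted p = 5.34e-12), and the decoy receptor gene Il1r2 differed by 7.36. Il1f9, which encodes interleukin-36 gamma, differed by 7.63, the gelatinase gene Mmp9 by 7.38, the lactoferrin gene Ltf by 7.30 and the granule protein gene Ngp by 7.26. Lcn2, which encodes the iron-siderophore carrier lipocalin 2, differed by 7.98, the complement C5a receptor gene C5ar1 by 7.61, the inhibitory receptor gene Lilrb4a by 7.61 and the SRC family kinase gene Fgr by 7.70. Among the 15 were also genes of lymphocytes. Gzma, the granzyme A gene of cytotoxic lymphocytes, differed by 7.87, and the immunoglobulin kappa segment Igkj1 by 7.94. Igkj1 read 11.98, 12.25 and 12.20 in granulocytes, against 3.17, 6.64 and 2.80 in knockout-labelled MDPs, so 1 knockout-labelled pool stood apart from the other two.

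The 15 genes with the largest deposited falls included Cnn3, which encodes the actin-binding protein calponin 3, at 2.72, 2.31 and 2.47 in granulocytes, against 10.02, 9.68 and 9.46 in knockout-labelled MDPs (log2 difference -7.22, SE 0.29, adjusted p = 2.8e-10). Ctsg, the cathepsin G gene of primary granules, read 5.46, 4.57 and 6.47 in granulocytes, against 12.18, 12.17 and 12.28 in knockout-labelled MDPs (log2 difference -6.71, SE 0.42, adjusted p = 2.02e-08, 105-fold lower). F13a1, the gene of the coagulation factor XIII A chain, read 4.19, 4.29 and 4.30 in granulocytes, against 10.87, 10.97 and 10.81 in knockout-labelled MDPs, and Ccr2, the receptor gene of the monocyte chemoattractant CCL2, 4.23, 3.95 and 4.04 in granulocytes, against 9.86, 9.99 and 10.08 in knockout-labelled MDPs (log2 differences -6.62 and -5.91). The groups were far apart in each of these genes, and the granulocyte pools spread most in Ctsg, with pool 3 highest. Myc, the growth-promoting transcription factor gene, was 5.11, 5.17 and 4.95 in granulocytes, against 10.49, 10.59 and 10.21 in knockout-labelled MDPs (log2 difference -5.35, SE 0.17, adjusted p = 3.09e-11, 40.9-fold lower). The receptor tyrosine kinase gene Met differed by -5.07 and the progenitor antigen gene Cd34 by -5.07. Genes of mitochondria and of ribosome assembly were in the group as well, with C1qbp at -5.52, the fatty acid oxidation gene Hadh at -5.38 and Wdr12, whose product matures the large ribosomal subunit, at -5.11. Abhd14a (-5.88), the acyl-CoA dehydratase gene Hacd1 (-5.78), Bex6 (-5.56), the angiomotin gene Amot (-5.39) and the dermokine gene Dmkn (-5.18) completed them.

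Secondary and tertiary granule genes were higher, while primary granule genes changed in both directions. Of 23 measured secondary and tertiary granule genes 22 were higher and 1 lower, with a median difference of 4.97. Stfa2l1, Lcn2, Mmp9 and Ltf were among those with the largest rises. Lcn2 read 12.78, 11.51 and 12.25 in granulocytes, against 4.67, 3.89 and 4.04 in knockout-labelled MDPs and Ltf 12.74, 11.63 and 12.67 in granulocytes, against 5.45, 4.52 and 5.17 in knockout-labelled MDPs, with granulocyte pool 2 lowest in both. The exception was Stom, the stomatin gene, at 6.26, 5.35 and 4.51 in granulocytes, against 8.68, 8.80 and 7.99 in knockout-labelled MDPs (log2 difference -3.11, SE 0.39, adjusted p = 1.57e-05). Of 15 primary granule genes 6 were higher and 8 lower (median difference -0.80). The serine protease genes of promyelocytes fell, with Elane, neutrophil elastase, at 8.02, 5.67 and 7.15 in granulocytes, against 11.67, 11.43 and 11.72 in knockout-labelled MDPs (log2 difference -4.66, SE 0.51, adjusted p = 4.73e-06) and Prtn3, proteinase 3, at 6.91, 5.11 and 6.67 in granulocytes, against 11.17, 11.11 and 11.31 in knockout-labelled MDPs (log2 difference -4.97, SE 0.35, adjusted p = 6.3e-08), and Ctsg as above. The inhibitor gene Cst7 differed by -4.25. Mpo, which encodes myeloperoxidase and is named here after its values were seen, read 9.09, 7.48 and 9.86 in granulocytes, against 12.85, 12.81 and 12.74 in knockout-labelled MDPs (log2 difference -3.99, SE 0.51, adjusted p = 1.77e-05). Granulocyte pool 2 was lowest in Elane, Prtn3 and Mpo, and the pools spread more widely than the knockout-labelled ones. The primary granule genes with the largest rises encode lysozymes and lysosomal hydrolases, namely Lyz2 at 11.88, 11.49 and 11.70 in granulocytes, against 9.64, 9.18 and 9.23 in knockout-labelled MDPs (log2 difference 2.34, SE 0.51, adjusted p = 0.00194), Lyz1 (1.39), the fucosidase gene Fuca1 (1.27) and the mannosidase gene Man2b1 (1.19). Lyz1 and Lyz2 are near-identical copies, and their probe sets may share signal.

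**Figure D3:**
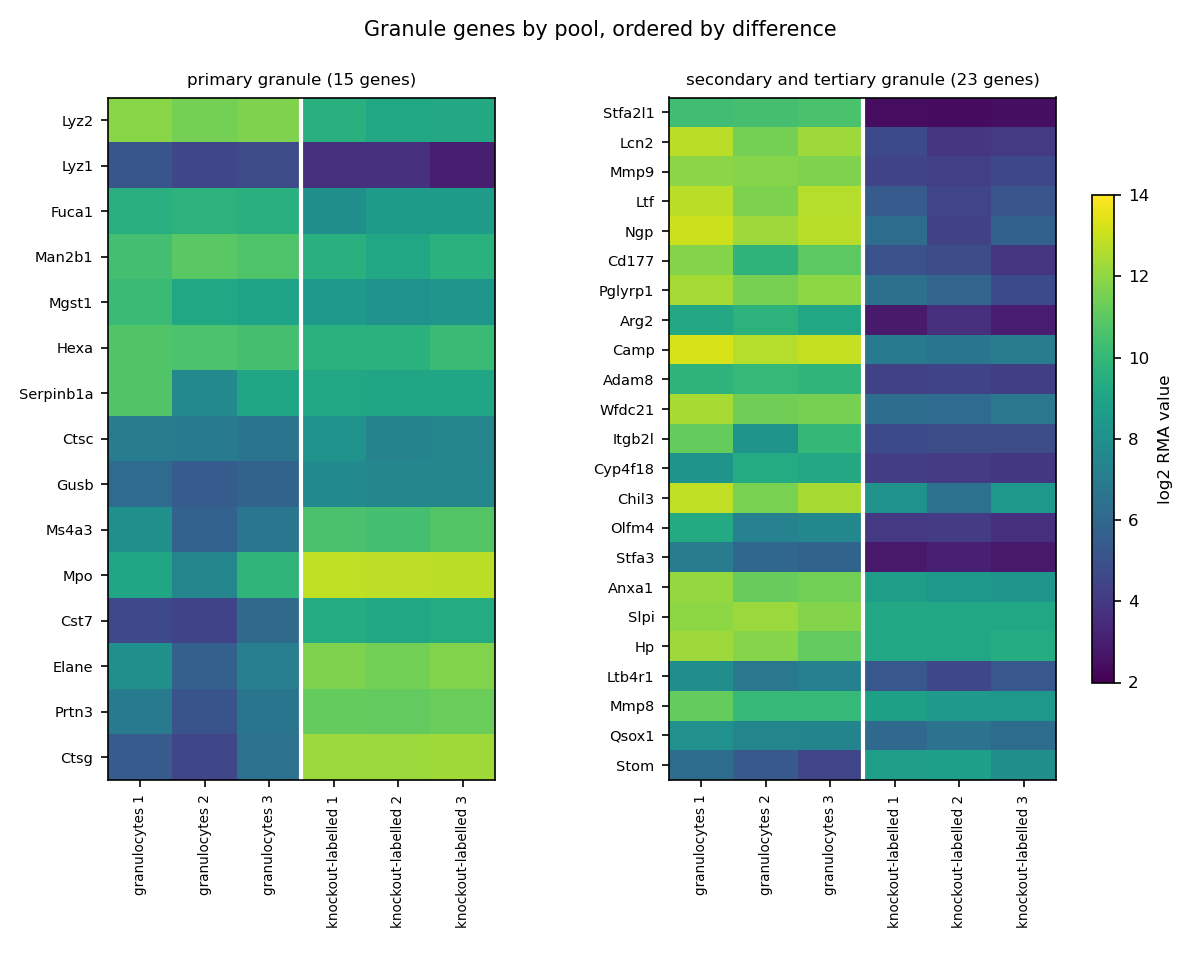
Level of each primary granule gene (left, 15 genes) and each secondary or tertiary granule gene (right, 23 genes) in granulocyte pools 1 to 3 and knockout-labelled MDP pools 1 to 3 (columns), as log2 RMA values in colour, ordered by difference. The promyelocyte proteases at the foot of the left panel are brighter in the knockout-labelled pools, and all genes of the right panel but Stom are brighter in the granulocyte pools.

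The RefSeq promoter of Lcn2 (GRCm38.p6) is shown as that of a secondary granule gene with a large rise holding the letters TTGCNNAA, a C/EBP-type pattern, on either strand (capitals). The window runs for 300 bases, with 250 before and 50 after the gene's first listed start. Of 19 secondary and tertiary granule genes with a promoter listed, 7 held such letters (36.8%), against 9.1% of 13605 promoters.
Lcn2 promoter (chr2:32387690-32387989, minus strand): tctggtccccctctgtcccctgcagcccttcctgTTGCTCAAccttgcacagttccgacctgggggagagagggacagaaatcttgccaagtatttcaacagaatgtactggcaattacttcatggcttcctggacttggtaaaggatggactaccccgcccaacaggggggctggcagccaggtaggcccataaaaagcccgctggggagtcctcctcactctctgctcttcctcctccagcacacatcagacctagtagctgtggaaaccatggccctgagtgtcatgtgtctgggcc

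Receptors by which neutrophils sense their surroundings were mostly higher. Of 18 chemoattractant and cytokine receptor genes 14 were higher and 1, Ccr2, was lower (median difference 1.73). Cxcr2, the receptor gene for neutrophil-attracting CXC chemokines, read 10.91, 11.27 and 11.28 in granulocytes, against 4.25, 5.46 and 5.18 in knockout-labelled MDPs (log2 difference 6.19, SE 0.28, adjusted p = 8.88e-10), and Fpr2, C5ar1 and Il1r2 belong to the list as well. Of 24 pattern recognition and activating receptor genes 18 were higher and 0 lower (median difference 2.43). The paired receptor gene Pilra (5.51), the C-type lectin genes Clec4d (4.74) and Clec4e (4.56), and Pilrb1 (4.67) had the largest differences in that list. Clec4d read 12.17, 12.53 and 12.16 in granulocytes, against 7.72, 7.21 and 7.70 in knockout-labelled MDPs. The RNA-sensing receptor gene Tlr7 (-0.14, adjusted p = 0.688) and the lectin gene Clec5a (-0.38, adjusted p = 0.586) were not called. Of 14 Fc and complement receptor genes 11 were higher and 0 lower (median difference 1.28). Fcgr4, an activating Fc receptor gene, read 10.10, 10.17 and 9.74 in granulocytes, against 4.81, 4.95 and 4.91 in knockout-labelled MDPs (log2 difference 5.11, SE 0.29, adjusted p = 7.72e-09). The high-affinity receptor gene Fcgr1 (0.71, adjusted p = 0.228) and the inhibitory one Fcgr2b (-0.10, adjusted p = 0.884) were not called.

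Adhesion, motility and oxidase genes were also mostly higher. Of 17 leukocyte adhesion genes 10 were higher and 3 lower (median difference 2.18). Itgb2, the shared beta-2 integrin chain, read 12.02, 11.91 and 11.85 in granulocytes, against 7.32, 5.26 and 7.65 in knockout-labelled MDPs (log2 difference 5.18, SE 0.69, adjusted p = 3.01e-05), with knockout-labelled pool 2 lowest. The carcinoembryonic antigen-related adhesion gene Ceacam1 differed by 3.44 and Selplg, the P-selectin ligand gene, by 3.17. Pecam1 (-2.67), Itga6 (-1.71) and Icam2 (-1.12) were lower. Of 27 actin cytoskeleton and motility genes 22 were higher and 2 lower (median difference 1.05). Lsp1, a leukocyte actin-binding protein gene, read 11.23, 11.84 and 11.52 in granulocytes, against 5.28, 4.53 and 4.80 in knockout-labelled MDPs (log2 difference 6.66, SE 0.33, adjusted p = 2.18e-09), the gelsolin gene Gsn 11.48, 11.43 and 11.42 in granulocytes, against 6.69, 6.27 and 6.23 in knockout-labelled MDPs (33.1-fold higher), and the alpha-actinin gene Actn1 differed by 3.93. Evl was lower (-1.81). Tmsb10 was lower by its brightest probe set (-0.45, adjusted p = 0.0271, adjusted p up to 0.114 without 1 pool) and higher by another (0.61, adjusted p = 0.0027), and its direction also turned with centring on ubiquitous genes. Of 6 phagocyte oxidase genes 4 were higher and 0 lower (median difference 1.89). Rac2, the small GTPase gene of the oxidase, read 10.998, 10.76 and 10.77 in granulocytes, against 7.95, 8.23 and 8.68 in knockout-labelled MDPs (log2 difference 2.55, SE 0.20, adjusted p = 1.85e-07). Cyba and Cybb, the chains of its membrane core, both differed by 2.22 and Ncf4 by 1.57. Cybb lost its call without granulocyte pool 1 (adjusted p = 0.0868), and without knockout-labelled pool 1 or 3 (adjusted p = 0.0503 and 0.0582).

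Inflammatory mediators rose in part. Of 32 genes of the interleukin-1 system and of inflammatory mediators 18 were higher and 3 lower (median difference 1.37). Besides Il1b and Il1r2, the chemokine genes Ccl5 (9.62, 9.61 and 10.65 in granulocytes, against 3.91, 4.06 and 4.325 in knockout-labelled MDPs, log2 difference 5.86) and Ccl6 (5.85) had the largest rises. Granulocyte pool 3 was highest in Ccl5. The macrophage-type chemokine genes Ccl9 (6.10, 8.12 and 7.87 in granulocytes, against 10.98, 11.09 and 10.92 in knockout-labelled MDPs, log2 difference -3.63) and Ccl3 (-2.69) and the monocyte attractant gene Ccl2 (-0.998) were lower. Il6 and Il1a were at 2.45 ± 0.02 and 2.62 ± 0.13 in granulocytes and 2.45 ± 0.05 and 2.68 ± 0.02 in knockout-labelled MDPs, below the lower quartiles in both groups. Of 17 S100 protein and annexin genes 7 were higher and 4 lower (median difference 0.40), the lower share being close to the 22.7% over all genes. S100a6, a calcium-binding protein gene, read 12.19, 12.29 and 11.96 in granulocytes, against 6.36, 5.82 and 5.85 in knockout-labelled MDPs (log2 difference 6.14, SE 0.60, adjusted p = 1.37e-06). The calprotectin genes S100a8 (13.11, 13.37 and 13.47 in granulocytes, against 9.48, 8.02 and 9.37 in knockout-labelled MDPs, log2 difference 4.36, SE 1.37, adjusted p = 0.0205) and S100a9 (4.204) were also higher, with knockout-labelled pool 2 lowest. S100a8 lost its call without granulocyte pool 2 or 3 (adjusted p = 0.0529 and 0.0526) or knockout-labelled pool 2 (0.0713), and S100a9 without knockout-labelled pool 2 (0.0677). S100a1 (-2.82), S100a10 (-1.66), S100a4 (-1.41) and Anxa5 (-1.02) were lower, of which S100a4 (adjusted p up to 0.117 without 1 pool) and Anxa5 (adjusted p up to 0.0999 without 1 pool) lost the call in some fits, and 2 of the list were lower without granulocyte pool 3.

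Of 26 immediate early genes, which respond fast to stress or stimulation, 15 were higher and 2 lower (median difference 1.14). Zfp36l1, which encodes an RNA-decay factor, read 9.09, 9.79 and 9.69 in granulocytes, against 5.20, 5.24 and 3.87 in knockout-labelled MDPs (log2 difference 4.75), Ier5 differed by 3.78, the antiproliferative gene Btg1 by 3.19 and the phosphatase gene Dusp1 by 3.16. The AP-1 subunit genes Jun (9.15, 9.54 and 9.498 in granulocytes, against 10.93, 11.20 and 10.42 in knockout-labelled MDPs, log2 difference -1.45) and Fosb (-2.37) were lower. A second Jun probe set, with means of 8.24 in granulocytes and 8.52 in knockout-labelled MDPs, was not called (-0.28, adjusted p = 0.614). Fosb had 1 low knockout-labelled pool, with 4.53, 6.08 and 4.16 in granulocytes, against 8.18, 8.32 and 5.40 in knockout-labelled MDPs, and lost its call without granulocyte pool 3 (adjusted p = 0.0699) or knockout-labelled pool 1 or 2 (0.0747 and 0.0776). The list mean was 7.72, 8.46 and 8.23 in the granulocyte pools, against 7.22, 6.92 and 6.32 in knockout-labelled MDPs.

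Genes of the interferon response were mostly higher. Of 8 interferon regulatory factor genes 5 were higher, and Irf8 was the 1 that was lower (median difference 1.35). Irf9, a subunit of the interferon-activated complex ISGF3, read 8.32, 8.69 and 8.003 in granulocytes, against 5.64, 5.90 and 5.57 in knockout-labelled MDPs (log2 difference 2.63, SE 0.27, adjusted p = 2.67e-06), Irf2 differed by 2.33, Irf7 by 2.01 and Irf1 by 1.69. Irf3 (-0.23, adjusted p = 0.428) and Irf4 (0.25, adjusted p = 0.47) were not called. Of 29 interferon-stimulated genes 20 were higher and 3 lower (median difference 2.61). Rsad2, which encodes the antiviral enzyme viperin, read 10.63, 11.20 and 10.93 in granulocytes, against 5.50, 5.15 and 4.23 in knockout-labelled MDPs (log2 difference 5.96, SE 0.57, adjusted p = 1.12e-06, 62.2-fold higher). Ifitm6, of the interferon-induced transmembrane family, differed by 6.80, Ifit3 by 4.74, and Oas3, whose product senses viral RNA, by 4.51. Ifi205 (4.61, 5.72 and 5.58 in granulocytes, against 9.01, 8.97 and 8.89 in knockout-labelled MDPs, log2 difference -3.65), Ifi203 (-2.86) and Gbp3 (-1.03, adjusted p up to 0.0607 without 1 pool) were lower. Mx1 (0.21, adjusted p = 0.589) and Mx2 (0.23, adjusted p = 0.356) were not called, with Mx1 at 7.16 ± 0.28 in macrophages. The list mean over 29 genes was 8.19, 8.45 and 8.19 in the granulocyte pools, against 6.18, 6.16 and 5.89 in knockout-labelled MDPs. It was 8.52 in macrophages and 5.95 in wild-type MDPs.

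The promoters of Rsad2 and Ifit3 (RefSeq, GRCm38.p6) are printed because they belong to the interferon-stimulated genes with the largest rises whose windows hold GAAANNGAAA, a pair of IRF half-sites, on either strand (capitals). Of 21 such genes with a promoter 13 held these letters (61.9%), against 3.0% of 13605 promoters. The match describes the letters and is no measured binding site.
Rsad2 promoter (chr12:26456403-26456702, minus strand): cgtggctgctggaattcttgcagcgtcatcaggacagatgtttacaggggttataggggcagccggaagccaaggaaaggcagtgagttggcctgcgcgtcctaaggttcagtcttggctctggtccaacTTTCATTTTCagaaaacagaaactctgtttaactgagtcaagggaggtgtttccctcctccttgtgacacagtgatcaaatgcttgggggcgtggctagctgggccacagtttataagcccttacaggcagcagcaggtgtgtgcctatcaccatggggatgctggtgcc
Ifit3 promoter (chr19:34583279-34583578, plus strand): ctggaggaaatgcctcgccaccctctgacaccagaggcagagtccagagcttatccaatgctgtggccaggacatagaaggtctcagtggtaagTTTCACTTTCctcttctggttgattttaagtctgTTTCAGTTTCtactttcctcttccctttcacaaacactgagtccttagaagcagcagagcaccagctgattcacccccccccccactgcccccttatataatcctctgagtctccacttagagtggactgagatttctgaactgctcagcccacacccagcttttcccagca

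Genes of cell division were lower, but the granulocyte pools differed among themselves. Of 38 DNA replication genes 36 were lower and 0 higher (median difference -2.29). Ung, a uracil repair enzyme gene, read 5.68, 4.96 and 5.63 in granulocytes, against 9.70, 9.63 and 10.11 in knockout-labelled MDPs (log2 difference -4.39, SE 0.24, adjusted p = 5.56e-09, 21.0-fold lower), the GINS complex gene Gins1 5.55, 4.26 and 4.40 in granulocytes, against 8.76, 8.24 and 9.26 in knockout-labelled MDPs (log2 difference -4.02), and the origin-licensing genes Cdt1 and Mcm6 differed by -3.34 and -3.31. Orc1 (0.26, adjusted p = 0.438) and Gins3 (-0.49, adjusted p = 0.217) were not called. Of 46 mitosis genes 35 were lower and 2 higher (median difference -1.61). The mitosis list mean was 7.52, 5.30 and 6.22 in granulocyte pools 1, 2 and 3, against 7.88, 7.85 and 7.92 in knockout-labelled MDPs. Granulocyte pool 1 thus lay near the progenitors, and pool 2 near the macrophages (5.14). Without pool 1 the fit called 42 lower and 2 higher, without pool 2 19 lower and 1 higher, and without pool 3 24 lower and 1 higher. A fit of only the 6 arrays called 17 lower.

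Cenpk, a kinetochore gene, read 5.91, 3.56 and 4.62 in granulocytes, against 7.89, 7.53 and 7.83 in knockout-labelled MDPs (log2 difference -3.05, SE 0.40, adjusted p = 2.7e-05), and the condensin subunit gene Ncapd2 read 7.35, 5.41 and 5.15 in granulocytes, against 8.61, 8.49 and 8.86 in knockout-labelled MDPs (log2 difference -2.69). The centrosomal kinase gene Nek2 (-2.67) and the spindle checkpoint gene Bub1b (-2.41) followed. Mki67, which encodes the proliferation antigen Ki-67, read 11.51, 9.36 and 10.90 in granulocytes, against 11.002, 11.40 and 11.50 in knockout-labelled MDPs and was not called (log2 difference -0.71, adjusted p = 0.273), nor was the mitotic kinase gene Plk1 (-0.38, adjusted p = 0.452). In Mki67 granulocyte pool 1 was level with the highest knockout-labelled pool, and pool 2 was lowest. Kif23, a motor gene of cytokinesis, was higher at 8.29, 8.30 and 8.73 in granulocytes, against 7.65, 7.47 and 7.62 in knockout-labelled MDPs (log2 difference 0.86, adjusted p = 0.0322), but lost its call in every fit without 1 pool except the one without granulocyte pool 1 (adjusted p up to 0.116 without 1 pool). The phosphatase gene Cdc25b differed by 0.76 (adjusted p = 0.00675). The granule list means had the same order over granulocyte pools 1, 2 and 3, at 10.79, 10.01 and 10.22 for secondary and tertiary and at 8.27, 7.31 and 8.05 for primary granules. Their part in the spread of the mitosis genes was not tested.

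**Figure D4:**
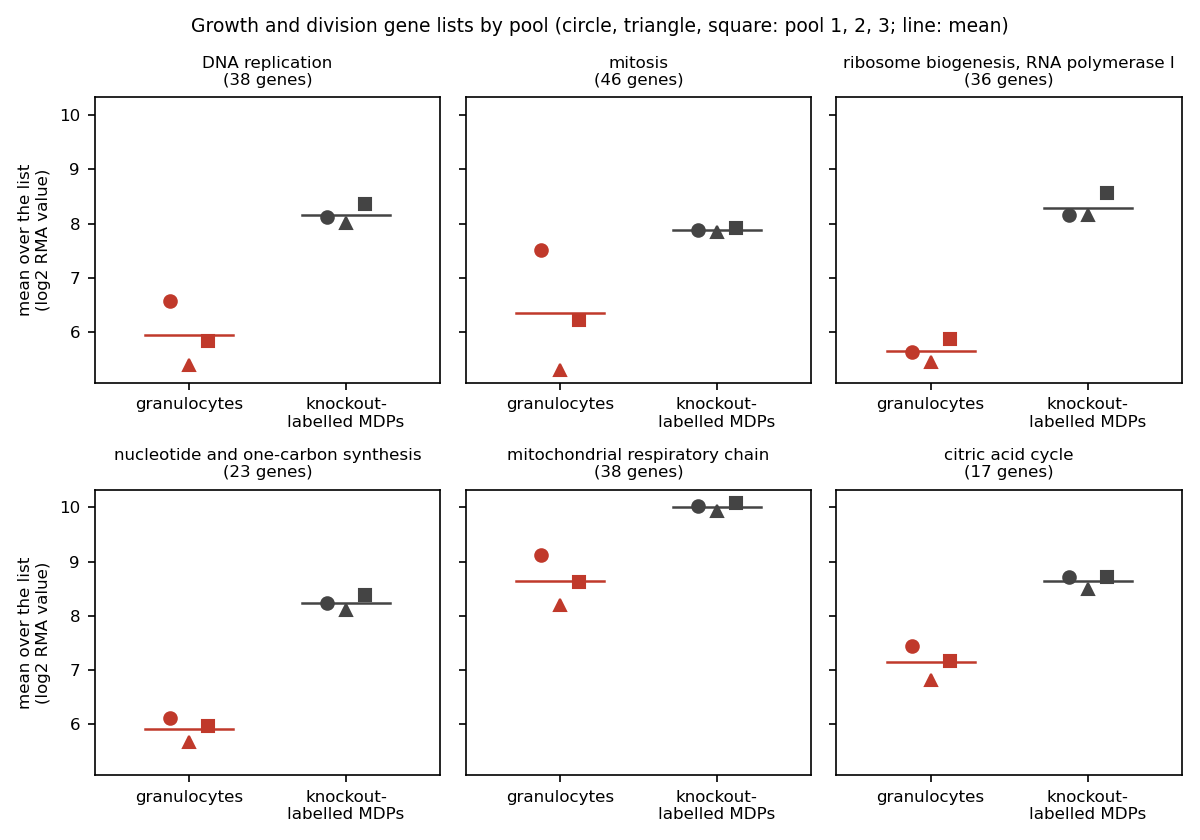
Mean level of 6 gene lists (log2 RMA values) in each of 3 granulocyte pools (left, red) and 3 knockout-labelled MDP pools (right, grey), with circles, triangles and squares for pools 1, 2 and 3 and a line at the group mean. The groups do not overlap in any panel, and in mitosis the granulocyte pools spread between 5.30 and 7.52 while the knockout-labelled ones lie between 7.85 and 7.92.

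The promoters of Ncapd2 and Bub1b (RefSeq, GRCm38.p6) are printed as those of the mitosis genes with the largest falls that hold TTTGAA, the core of the CHR element of cell cycle genes, on either strand. Capitals mark TTTGAA and the CCAAT box, in either orientation, and the 2 kinds of match did not overlap in these windows. Of 38 mitosis genes with a promoter 30 held TTTGAA (78.9%, against 13.3% of 13605 promoters), 32 held CCAAT (84.2%, against 38.4%) and 27 held both (71.1%, against 5.3%). The letters overlapped in 1 of those mitosis promoters.
Ncapd2 promoter (chr6:125191537-125191836, minus strand): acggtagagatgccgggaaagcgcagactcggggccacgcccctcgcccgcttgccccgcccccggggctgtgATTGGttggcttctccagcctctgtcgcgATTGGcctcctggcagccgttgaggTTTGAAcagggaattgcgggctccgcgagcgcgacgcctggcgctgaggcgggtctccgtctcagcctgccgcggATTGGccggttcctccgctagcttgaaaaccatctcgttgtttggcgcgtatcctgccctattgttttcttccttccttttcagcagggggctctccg
Bub1b promoter (chr2:118597961-118598260, plus strand): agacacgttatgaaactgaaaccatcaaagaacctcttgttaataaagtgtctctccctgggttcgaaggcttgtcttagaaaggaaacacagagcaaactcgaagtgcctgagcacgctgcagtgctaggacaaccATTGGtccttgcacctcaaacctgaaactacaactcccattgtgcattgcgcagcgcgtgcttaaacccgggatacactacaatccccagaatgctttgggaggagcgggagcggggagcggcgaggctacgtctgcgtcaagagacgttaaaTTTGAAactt
Of 31 DNA replication genes with a promoter 12 held the E2F-type letters TTTNNCGC on either strand (38.7%, against 7.3%), and Cdt1, with the largest fall among them, is shown with these letters in capitals.
Cdt1 promoter (chr8:122567765-122568064, plus strand): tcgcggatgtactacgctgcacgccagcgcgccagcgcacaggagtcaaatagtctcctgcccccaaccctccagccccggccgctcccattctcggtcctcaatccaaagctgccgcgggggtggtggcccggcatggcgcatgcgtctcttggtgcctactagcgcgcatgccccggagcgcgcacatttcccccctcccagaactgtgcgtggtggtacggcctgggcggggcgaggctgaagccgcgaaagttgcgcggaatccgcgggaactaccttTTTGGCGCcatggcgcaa

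Of 28 cell cycle inhibitor and quiescence genes, a list that also holds their cyclin and kinase partners, 9 were higher and 6 lower (median difference 0.03), the lower share of 21.4% being close to the 22.7% over all genes. Gadd45a, a growth arrest gene, read 9.36, 9.58 and 9.38 in granulocytes, against 5.71, 3.80 and 5.21 in knockout-labelled MDPs (log2 difference 4.53, SE 0.44, adjusted p = 1.4e-06). The antiproliferative gene Tob1 (3.69), the E2F factor gene E2f2 (3.43) and Cdkn1b, which encodes the CDK inhibitor p27 (2.69), were higher too. The G1 kinase genes Cdk6, at 6.53, 5.51 and 4.76 in granulocytes, against 10.45, 10.75 and 10.47 in knockout-labelled MDPs (log2 difference -4.96, SE 0.32, adjusted p = 2.36e-08), and Cdk4, at 5.09, 6.03 and 5.05 in granulocytes, against 10.12, 10.14 and 10.05 in knockout-labelled MDPs (log2 difference -4.71, SE 0.23, adjusted p = 1.81e-09, 26.2-fold lower), had the largest falls. Cdkn1a, the p21 inhibitor gene, was lower as well (-1.75), as was the cyclin gene Ccnd1 (-1.10).

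Genes of ribosome production and nucleotide synthesis were lower, and none of the measured members was called higher. Of 36 ribosome biogenesis and RNA polymerase I genes 33 were lower and 0 higher (median difference -2.82). Nop58, a box C/D nucleolar protein gene, read 4.46, 4.11 and 4.67 in granulocytes, against 9.44, 9.27 and 9.53 in knockout-labelled MDPs (log2 difference -5.003, SE 0.19, adjusted p = 1.58e-10, 32.1-fold lower). Wdr12 read 4.47, 4.49 and 4.27 in granulocytes, against 9.84, 9.43 and 9.27 in knockout-labelled MDPs and Nhp2, an H/ACA particle gene, 5.83, 4.45 and 5.51 in granulocytes, against 9.73, 9.76 and 10.40 in knockout-labelled MDPs (log2 difference -4.70). Wdr74 differed by -3.95. The list mean was 5.63, 5.45 and 5.87 in the granulocyte pools, against 8.16, 8.15 and 8.56 in knockout-labelled MDPs, a gap far wider than the spread within either group. Macrophages had 7.11 and wild-type MDPs 8.26. The E-box letters CACGTG, a pattern bound by MYC, were in the promoters of 4 of 31 genes of the list (12.9%, against 9.0% of 13605). Of 23 nucleotide and one-carbon synthesis genes 20 were lower and 0 higher (median difference -2.44). Psat1 of serine synthesis read 5.68, 5.05 and 4.25 in granulocytes, against 9.61, 9.85 and 9.70 in knockout-labelled MDPs (log2 difference -4.72, SE 0.27, adjusted p = 7.35e-09), and the purine synthesis genes Paics and Pfas differed by -4.36 and -3.34. Cad, which starts pyrimidine synthesis, differed by -3.70.

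Mitochondrial energy genes were lower by smaller amounts. Of 38 respiratory chain genes 32 were lower and 0 higher (median difference -1.28). Atp5g1, an ATP synthase subunit gene, read 6.89, 5.86 and 6.47 in granulocytes, against 9.72, 9.26 and 9.62 in knockout-labelled MDPs (log2 difference -3.13, SE 0.23, adjusted p = 7.29e-08). The complex I genes Ndufa10 (-2.91), Ndufa5 (-2.67) and Ndufb5 (-2.36) followed. Ndufb9, also of complex I, differed by 0.04 (adjusted p = 0.874), and Atp5h by -0.31 (adjusted p = 0.214). Of 17 citric acid cycle genes 13 were lower and 0 higher (median difference -1.52). Suclg2, a succinyl-CoA ligase gene, read 3.91, 3.19 and 3.76 in granulocytes, against 7.84, 7.36 and 7.52 in knockout-labelled MDPs (log2 difference -3.95, SE 0.24, adjusted p = 1.51e-08). The fumarase gene Fh1 differed by -3.29, the isocitrate dehydrogenase gene Idh3b by -3.02 and the pyruvate dehydrogenase gene Dlat by -2.84. Mdh2 was not called (-0.04, adjusted p = 0.853).

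Of 24 glucose uptake and glycolysis genes 8 were higher and 4 lower (median difference 0.27). Slc16a3, the lactate exporter MCT4, read 9.73, 10.23 and 9.97 in granulocytes, against 4.49, 4.13 and 5.33 in knockout-labelled MDPs (log2 difference 5.33, SE 0.49, adjusted p = 7.29e-07), and its relative Slc16a1, MCT1, was lower at 3.56, 3.37 and 2.83 in granulocytes, against 7.66, 7.73 and 8.52 in knockout-labelled MDPs (log2 difference -4.72, SE 0.33, adjusted p = 6.22e-08). The glucose transporter genes Slc2a3 (5.26) and Slc2a6 (2.91) and the fructose bisphosphate regulator Pfkfb4 (4.201) were higher. The enzyme genes Tpi1 (-1.51), Pfkl (-1.23) and Pfkm (-1.79) were lower, and Ldha (-0.12, adjusted p = 0.641) and Pgk1 (-0.38, adjusted p = 0.141) were not called.

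Of 40 myeloid transcription factor genes 19 were higher and 8 lower (median difference 0.64), the lower share of 20.0% being close to the 22.7% over all genes. Id2, an inhibitor of E proteins, read 8.92, 7.74 and 8.30 in granulocytes, against 4.40, 4.14 and 4.14 in knockout-labelled MDPs (log2 difference 4.09, SE 0.38, adjusted p = 8.14e-07), and the E protein gene Tcf4 was lower at 5.43, 5.32 and 5.43 in granulocytes, against 8.40, 9.08 and 8.75 in knockout-labelled MDPs (log2 difference -3.35, SE 0.18, adjusted p = 5.7e-09). Rara, the retinoic acid receptor alpha gene, differed by 3.79, Ets2 by 3.20 and Ets1 by 2.76. Besides Irf8 and Tcf4, Tcf7l2 (-2.43) and Cebpa, the C/EBP alpha gene of granulocyte and monocyte commitment, were lower. Cebpa read 6.46, 7.17 and 7.12 in granulocytes, against 9.16, 9.04 and 9.33 in knockout-labelled MDPs (log2 difference -2.26, SE 0.30, adjusted p = 3.03e-05). Of 26 early progenitor genes 15 were lower and 1 higher (median difference -1.26). Among them were Myc, Cd34, the costimulatory receptor gene Cd27 (-4.73) and Myb (-4.57), which read 4.84, 3.34 and 4.13 in granulocytes, against 8.71, 8.79 and 8.54 in knockout-labelled MDPs. Hlf, a transcription factor gene of stem cells, was called higher by 0.49 (adjusted p = 0.0213), and lost the call without granulocyte pool 1 (adjusted p = 0.0565) or knockout-labelled pool 1 (0.106).

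Of 18 DNA methylation and Polycomb genes 11 were lower and 3 higher (median difference -1.07), the higher share of 16.7% being close to the 19.8% over all genes. Dnmt3b, a de novo DNA methyltransferase gene, read 4.19, 3.91 and 4.09 in granulocytes, against 7.77, 7.50 and 7.60 in knockout-labelled MDPs (log2 difference -3.56, SE 0.17, adjusted p = 1.55e-09), and Uhrf1, a gene of maintenance methylation (-2.95), the heterochromatin gene Cbx5 (-2.90) and Rbbp7 (-2.85) were lower. The Polycomb methyltransferase gene Ezh1 (1.299), Cbx7 (0.79) and the 5-methylcytosine oxidase gene Tet2 (0.74, adjusted p up to 0.0845 without 1 pool) were higher. Of 16 nuclear envelope and nuclear shape genes 7 were higher and 6 lower (median difference 0.42). Padi4, which citrullinates histones in neutrophils, read 9.39, 9.77 and 9.49 in granulocytes, against 6.13, 4.66 and 4.47 in knockout-labelled MDPs (log2 difference 4.46, SE 0.55, adjusted p = 1.45e-05). Syne1 (3.89) and Syne2 (1.05, not called without granulocyte pool 1), whose nesprins tie the nucleus to the cytoskeleton, and the lamin B receptor gene Lbr (1.003) were higher. Banf1 (-3.33), the lamin gene Lmnb2 (-1.45), Sun1 (-1.19) and Hmgb1 (-1.18) were lower. Of 16 BCL2 family genes 6 were higher and 2 lower (median difference 0.26). Mcl1, the survival gene on which neutrophils depend, read 11.09, 11.55 and 11.60 in granulocytes, against 8.89, 8.73 and 8.28 in knockout-labelled MDPs (log2 difference 2.78, SE 0.20, adjusted p = 5.98e-08, 6.86-fold higher), while Bcl2 read 7.32, 7.08 and 8.21 in granulocytes, against 10.11, 10.64 and 10.64 in knockout-labelled MDPs (log2 difference -2.92, SE 0.30, adjusted p = 2e-06, 7.59-fold lower). Bcl2a1a (1.89), Pmaip1 (1.82) and Bcl2l1 (1.19) were higher and the pore-forming gene Bak1 lower (-1.59). Bak1 read 8.02, 6.74 and 5.65 in granulocytes, and lost its call in the fit of only the 6 arrays. A second Bak1 probe set was not called (-0.26, adjusted p = 0.493). Bcl2a1a has near-identical copies whose signal its probe set may share, as have the Stfa, Klra, Ifit, H2 and haemoglobin genes named elsewhere.

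Antigen presentation and lysosome genes were higher in part. Among 13 genes that present antigen on MHC class II, 5 were higher and 1 was lower (median difference 0.57). The invariant chain gene Cd74 read 8.30, 9.68 and 9.73 in granulocytes, against 4.09, 4.16 and 4.71 in knockout-labelled MDPs (log2 difference 4.92, SE 0.69, adjusted p = 4.96e-05), with granulocyte pool 1 lowest, and the class II chain genes H2-Aa (3.15), H2-Eb1 (2.83) and H2-Ab1 (1.75) were higher. H2-DMa, a chain of the peptide loader, was lower at 4.76, 5.02 and 4.328 in granulocytes, against 7.38, 7.13 and 7.24 in knockout-labelled MDPs (log2 difference -2.55). The list mean was 6.10, 6.84 and 6.79 in the granulocyte pools, against 5.75, 5.71 and 5.66 in knockout-labelled MDPs, and 9.28 in macrophages. Of 23 lysosome genes 12 were higher and 4 lower (median difference 0.56). Ctsh, a cathepsin gene, read 9.08, 8.28 and 8.63 in granulocytes, against 3.78, 3.23 and 3.31 in knockout-labelled MDPs (log2 difference 5.22, SE 0.29, adjusted p = 6.76e-09), Ctse differed by 3.67, Ctsd by 2.42 and the lysosomal regulator gene Tfeb by 2.26. Glb1 (-1.67), Ctsl (-1.53), the sterol carrier gene Npc2 (-0.89) and Gla (-0.84, adjusted p up to 0.0535 without 1 pool) were lower.

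Markers of other cell types that the granulocyte gate could hold were read in the same pools. Of 17 NK-cell genes 14 were higher and 0 lower (median difference 2.27), and the list mean was 5.86, 5.88 and 6.74 in granulocyte pools 1, 2 and 3, against 3.74, 3.82 and 3.90 in knockout-labelled MDPs. Gzma read 10.51, 10.50 and 11.61 in granulocytes, against 3.23, 2.72 and 3.08 in knockout-labelled MDPs, the NK receptor gene Klra8 6.15, 6.75 and 8.55 in granulocytes, against 2.09, 2.12 and 2.19 in knockout-labelled MDPs, and the transcription factor gene Tbx21 5.68, 6.16 and 8.23 in granulocytes, against 2.72, 2.59 and 2.58 in knockout-labelled MDPs. Gzmb differed by 3.38. Granulocyte pool 3 was highest in each of these, and without it 13 of the 17 were called higher and 1 lower (median difference 1.80). The activating receptor gene Ncr1, named after its values were seen, had 5.46 ± 0.40 in granulocytes and 3.19 ± 0.07 in knockout-labelled MDPs. Macrophages of the same tissue had a list mean of 4.17. Of 14 B-cell and plasma-cell genes 8 were higher and 2 lower (median difference 0.62). Jchain, the joining chain of secreted immunoglobulin, read 9.08, 9.42 and 9.68 in granulocytes, against 2.90, 2.86 and 2.95 in knockout-labelled MDPs (log2 difference 6.49, SE 1.05, adjusted p = 0.000175), and the B-cell genes Cd79a (1.36), Pax5 (1.21) and Cd22 (1.11, adjusted p up to 0.0834 without 1 pool) differed less. Ms4a1, which encodes the B-cell antigen CD20 and is also named after its values were seen, stood at 3.44 ± 0.29 in granulocytes and 3.02 ± 0.18 in knockout-labelled MDPs and was not called. Vpreb1 (-2.59) and Cd79b (-1.74), of the pre-B and B-cell receptors, were lower. The list mean was 4.53, 5.02 and 5.08 in granulocytes, against 4.21, 4.07 and 4.15 in knockout-labelled MDPs. The part of such cells in the results above was not tested.

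Of 6 eosinophil genes 3 were higher, namely Siglecf (7.17, 8.42 and 8.49 in granulocytes, against 6.10, 4.92 and 6.19 in knockout-labelled MDPs, log2 difference 2.29), Ccr3, the eotaxin receptor gene (4.72, 6.71 and 6.86 in granulocytes, against 3.65, 3.85 and 3.55 in knockout-labelled MDPs, log2 difference 2.41), and the interleukin-5 receptor gene Il5ra (1.14). Granulocyte pool 1 was lowest in all 3. The eosinophil granule genes Epx and Prg3 were at 4.48 ± 0.19 and 3.14 ± 0.05 in granulocytes, against 4.44 ± 0.06 and 2.94 ± 0.06 in knockout-labelled MDPs, and were not called. Of 10 mast cell and basophil genes 4 were higher and 1 lower, and 2 were higher without granulocyte pool 2 or knockout-labelled pool 2. Hdc, the histamine-forming enzyme gene, read 11.65, 11.78 and 11.90 in granulocytes, against 6.57, 6.29 and 6.70 in knockout-labelled MDPs (log2 difference 5.25, SE 0.48, adjusted p = 7.69e-07), and the chymase gene Cma1 differed by 2.03, while the basophil protease gene Mcpt8 was lower (-2.07). Fcer1a, Ms4a2, Cpa3 and Cd200r3 of that list, named after their values were seen, were not called. Their means were 2.71, 2.92, 2.86 and 2.54 in granulocytes, against 2.59, 3.15, 3.12 and 2.41 in knockout-labelled MDPs, below the lower quartiles. Of 14 T-cell genes Cd2 (1.71), Cd3d (1.15) and Cd5 (0.55, adjusted p up to 0.198 without 1 pool) were higher and Cd28 (-1.78) and Cd247 (-1.46) lower, the last with other probe sets called the opposite way (0.93 and 0.48). The share of T-cell genes called higher was close to the 19.8% over all genes. Without granulocyte pool 1, 5 T-cell genes were higher.

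Of 16 spleen macrophage genes 8 were higher and 1 lower (median difference 0.72), with 4 higher without granulocyte pool 2 or knockout-labelled pool 2 and 5 without granulocyte pool 3. The iron exporter gene Slc40a1 read 10.17, 10.55 and 10.12 in granulocytes, against 4.14, 4.34 and 3.71 in knockout-labelled MDPs (log2 difference 6.22, SE 0.59, adjusted p = 1.04e-06) and the haem oxygenase gene Hmox1 8.53, 8.59 and 8.22 in granulocytes, against 5.15, 4.55 and 4.86 in knockout-labelled MDPs (log2 difference 3.59, SE 0.38, adjusted p = 3.09e-06). The sorted macrophages had Slc40a1 at only 5.36 ± 0.24 (granulocytes minus macrophages 4.92, adjusted p = 1.94e-05). They had Hmox1 at 8.79 ± 0.25 (adjusted p = 0.544). Cd5l (2.35) and the complement gene C1qc (1.77, adjusted p up to 0.149 without 1 pool) were higher and the scavenger receptor gene Cd163 was lower (-1.56). C1qa (0.47, adjusted p = 0.375) and Siglec1 (0.58, adjusted p = 0.143) were not called. Of 16 monocyte genes 5 were higher and 4 lower (median difference 0.14), the lower share being close to the 22.7% over all genes. Cd14, the endotoxin co-receptor gene, read 8.17, 8.27 and 7.96 in granulocytes, against 5.46, 5.70 and 4.197 in knockout-labelled MDPs (log2 difference 3.02, SE 0.37, adjusted p = 1.17e-05), and Ly86 (2.38), Mpeg1 (1.76) and Nr4a1 (1.40) were higher. Ly86 stood at 5.78 ± 0.55 in granulocytes and 3.40 ± 0.42 in knockout-labelled MDPs, but at 10.08 ± 0.20 in wild-type MDPs and 10.75 ± 0.19 in macrophages. It was called lower in knockout-labelled than in wild-type MDPs (-6.69, adjusted p = 1.67e-08). F13a1, Ccr2, Ms4a6c (4.82, 6.04 and 5.13 in granulocytes, against 9.73, 9.49 and 9.19 in knockout-labelled MDPs, log2 difference -4.14) and the fractalkine receptor gene Cx3cr1 (-1.61) were lower.

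Of 13 conventional dendritic cell genes 3 were higher and 3 lower, among them Flt3, the receptor gene of a dendritic cell growth factor, at 2.82, 4.71 and 3.97 in granulocytes, against 8.34, 8.69 and 7.71 in knockout-labelled MDPs (log2 difference -4.41, SE 0.42, adjusted p = 1.22e-06), and of 9 plasmacytoid dendritic cell genes 2 were higher and 4 lower. Both conventional shares and the higher plasmacytoid one were close to the 19.8% higher and 22.7% lower over all genes. Without granulocyte pool 1, 5 conventional dendritic cell genes were higher, and without knockout-labelled pool 2, 2 plasmacytoid ones were lower. Of 14 erythroid genes 3 were higher and 1 lower, with the haemoglobin gene Hbb-b2 at 8.42, 7.56 and 7.35 in granulocytes, against 5.09, 5.35 and 4.57 in knockout-labelled MDPs (log2 difference 2.77) and the transferrin receptor gene Tfrc at -2.81. The share of erythroid genes called higher was close to the 19.8% over all genes. Without granulocyte pool 1, 2 erythroid genes were higher, and 1 was higher without any other single pool. Of 12 platelet and megakaryocyte genes 4 were higher and 0 lower. Of 12 endothelium and stroma genes 3 were higher, a share not far from the 19.8% over all genes, and 1 was lower. Of 9 ubiquitous genes Actb was higher (0.51), while Rplp0 (-2.10), Hprt (-1.92), Ppia (-1.89) and Sdha (-0.48, adjusted p up to 0.112 without 1 pool) were lower, and the list median was -0.38.

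**Figure D5:**
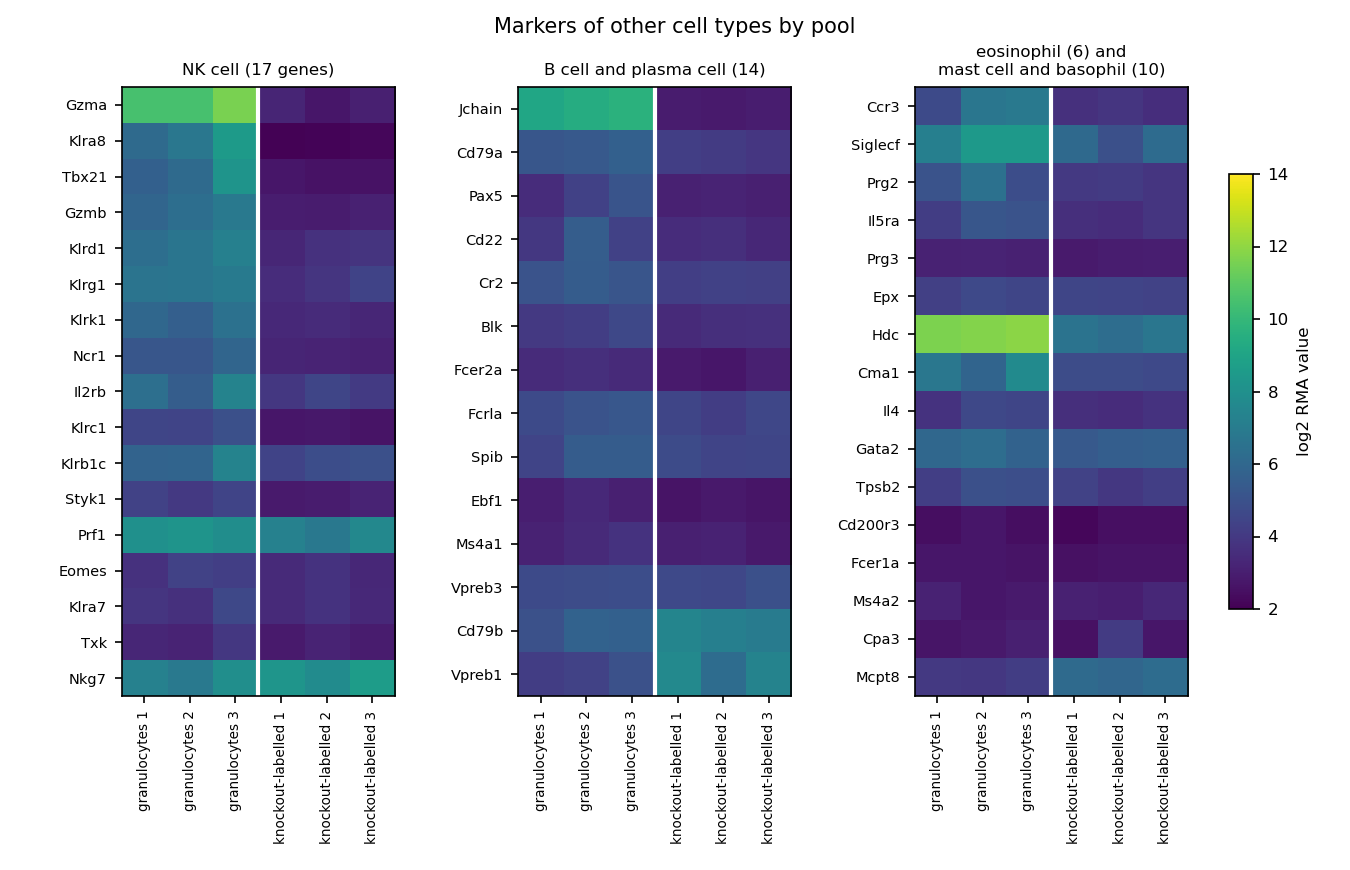
Level of NK-cell (17), B-cell and plasma-cell (14), and eosinophil, mast cell and basophil (6 and 10) marker genes in granulocyte pools 1 to 3 and knockout-labelled MDP pools 1 to 3 (columns), as log2 RMA values in colour. Gzma, Jchain and Hdc are bright in all 3 granulocyte pools, Klra8, Klrd1 and Klrb1c are brightest in pool 3, and Ccr3 and Siglecf are dimmer in granulocyte pool 1 than in pools 2 and 3.

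Levels in spleen macrophages were set beside those of granulocytes. The comparison with macrophages shares the granulocyte arrays with the one above. The 15 largest rises and the 15 largest falls were picked by differences that use those arrays. That choice favours the same direction against macrophages, so the counts of such genes are no separate support. Over all genes 12.2% were higher and 17.9% lower in granulocytes than in macrophages. Of the 15 largest rises 10 were also above macrophages and 0 below. Stfa2l1 stood at 10.45 ± 0.11 in granulocytes and 2.40 ± 0.13 in macrophages (log2 difference 8.04, adjusted p = 8.73e-15), Mmp9 at 11.81 ± 0.12 and 4.83 ± 0.32 (6.98), and Il1f9 at 10.61 ± 0.46 and 3.41 ± 0.44 (7.20). Il1r2, Lcn2, Ltf, Ngp, Gzma, Il1b and Fpr2 were the other genes above macrophages. Slfn1 (11.96 ± 0.22 in granulocytes and 10.71 ± 0.06 in macrophages, adjusted p = 0.201), Fgr (adjusted p = 0.591), Lilrb4a (0.187), C5ar1 (0.0756) and Igkj1 (0.126) were not called against macrophages. Their log2 differences were 1.25, 0.47, 1.39, 2.26 and 4.06, so a missed call is not an equal level. Igkj1 had 12.14 ± 0.15 in granulocytes and 8.08 ± 0.72 in macrophages, and C5ar1 12.27 ± 0.15 and 10.01 ± 0.31. Wild-type MDPs, which enter the shared spread, had SDs of 5.04 in Igkj1 and 1.92 in C5ar1. Of the 15 largest falls 11 were below macrophages too. F13a1 had 4.26 ± 0.06 in granulocytes and 10.74 ± 0.27 in macrophages (-6.48), Ccr2 4.07 ± 0.14 and 10.12 ± 0.15 (-6.05), and Met 3.60 ± 0.33 and 8.40 ± 0.17 (-4.79). Ctsg (adjusted p = 0.103), Cd34 (0.253), Dmkn (0.446) and Abhd14a (0.0697) did not pass the test against macrophages.

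Some of the genes also differed between knockout-labelled and wild-type MDPs, in a comparison that shares the knockout-labelled arrays. Over all genes 0.409% were higher and 0.415% lower in knockout-labelled than in wild-type MDPs. Of the 15 largest rises 0 were among them, and of the 15 largest falls Ccr2 and Dmkn were higher and Cd34 lower. In several of the rises the wild-type MDP pools spread widely, with SDs of 5.04 in Igkj1, 3.38 in Ngp and 2.63 in Gzma. A missed call there is not an equal level. The falls were picked by differences in which a high knockout-labelled level counts, which favours knockout-labelled above wild-type MDPs. Ccr2 had 4.07 ± 0.14 in granulocytes, 9.98 ± 0.11 in knockout-labelled MDPs and 7.62 ± 0.47 in wild-type MDPs (knockout-labelled minus wild-type 2.36, adjusted p = 0.000222), and Dmkn 4.35 ± 0.16 in granulocytes, 9.53 ± 0.48 in knockout-labelled MDPs and 6.19 ± 1.34 in wild-type MDPs (3.34, adjusted p = 0.00675). Ctsh had 8.66 ± 0.40 in granulocytes, 3.44 ± 0.30 in knockout-labelled MDPs and 8.14 ± 0.71 in wild-type MDPs (-4.70, adjusted p = 1.8e-06), and Ctse 6.90 ± 0.12 in granulocytes, 3.23 ± 0.30 in knockout-labelled MDPs and 7.52 ± 1.16 in wild-type MDPs (-4.29, adjusted p = 0.00301). In both cathepsin genes the granulocyte level was within 1 log2 unit of the wild-type MDP level, a difference that was not tested. Lsp1 had 11.53 ± 0.31 in granulocytes, 4.87 ± 0.38 in knockout-labelled MDPs and 8.10 ± 0.87 in wild-type MDPs (-3.23, adjusted p = 0.000224), with granulocytes above both. Mmp8, the collagenase gene of secondary granules, is named here after its values were seen. It had 10.41 ± 0.66 in granulocytes, 8.58 ± 0.21 in knockout-labelled MDPs and 4.55 ± 0.94 in wild-type MDPs, and was called higher both in granulocytes (log2 difference 1.83, SE 0.44, adjusted p = 0.00384) and in knockout-labelled against wild-type MDPs (4.03, adjusted p = 0.000383). Hbb-b2 had 7.78 ± 0.57 in granulocytes, 5.00 ± 0.40 in knockout-labelled MDPs and 10.48 ± 1.72 in wild-type MDPs (-5.47, adjusted p = 0.000838). Vpreb1 had 4.50 ± 0.41 in granulocytes, 7.09 ± 0.74 in knockout-labelled MDPs and 4.63 ± 0.27 in wild-type MDPs (2.46, adjusted p = 0.00647), and the granulocyte and wild-type MDP levels overlapped within their SDs. Ccl2, Ctsl, Tcf7l2 and Cd28, lower in granulocytes, were also called higher in knockout-labelled than in wild-type MDPs (adjusted p = 0.0341, 0.0197, 0.0174 and 0.0181). Their means were 3.73, 5.96, 5.79 and 3.35 in granulocytes and 4.72, 7.49, 8.22 and 5.13 in knockout-labelled MDPs. Wild-type MDPs had 3.74, 6.07, 6.37 and 3.76.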

How the data were processed

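Expression was measured on 17 arrays, and the 6 arrays of granulocytes and knockout-labelled MDPs were compared. The deposited values are log2 expression values that the authors produced by RMA in Affymetrix Expression Console, per the submitters' processing notes. In RMA the background is corrected, arrays are brought to one distribution by quantiles, and probes are summarised per probe set, so a shift of total RNA per cell is not seen. No source used here gives tool versions or the set of arrays normalized in one run. The files hold no detection calls, and precision is limited by how many arrays there are.

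The platform annotation gave 1 gene symbol for 28898 of 45037 probe sets, several for 551 and none for 15588. Each gene was read from its brightest probe set, by the mean over 17 arrays (17097 genes, 7180 with several probe sets, 92 of those with probe sets called in both directions). Differences were tested two-sided with lmFit and eBayes of limma 3.58.1, run in R 4.3.3, in one fit over 17 arrays with a mean for each of 6 groups (11 residual degrees of freedom, prior 3.11), with Benjamini-Hochberg adjustment over the 28898 probe sets. A p-value here reflects only how pools vary, with the spread shared over all 6 groups. A wide spread in a group outside the comparison therefore raises the SE and the p-value. For S100a8 (SE 1.37) the SDs were 0.19 in granulocytes, 0.81 in knockout-labelled MDPs and 4.22 in wild-type MDPs. For Jchain (SE 1.05) they were 0.30, 0.04 and 3.27.

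Named genes are Irf8 and the gate genes, the 15 largest called rises and falls whose arrays do not overlap, without predicted or RIKEN names, and for each of 43 lists up to 4 called genes each way and up to 2 that were not called. The members and lists were chosen with earlier results of these data known. Differences over a list are described by counts and medians, without a test. Alternatives were other sets of arrays, array weights, a trended robust prior, centring, a filter on low values (mean over the 6 arrays above 4.79), a test against a 2-fold difference, other rules for probe sets, and leaving out each pool. Pool numbers were not used to pair the samples in the main fit. Deviations of same-numbered pools correlated at 0.037, 0.046 and 0.046, and those of unlike-numbered pools at -0.052 to 0.007. These low values do not exclude a weak effect shared by same-numbered pools. Dendritic cell samples were not analysed here.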

Additional observations from a re-analysis of the deposited data

How the results depend on the processing

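The call counts over 28898 probe sets and 17097 genes stayed within 1.5 times 11553 and 7269 in all but 2 of the alternatives. With arrays centred on 9 ubiquitous genes, 21744 probe sets (83.3% higher) and 13251 genes (81.7% higher) were called, since that centring raised the median over all genes by 0.68. Tested against a 2-fold difference, 3516 probe sets (35.6% higher) and 2336 genes (33.9% higher) were called. The fit of only the 6 arrays called 9247 probe sets and 5792 genes, and the same arrays with the pool number as a replicate block called 8807 and 5474, of whose genes 38.7% were higher. Among probe sets or genes above the filter on low values, 8744 (38.4% higher) and 5677 (36.9% higher) were called. Fits without 1 pool called 9732 to 11775 probe sets and 6127 to 7497 genes.

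Of 239 named genes 30 changed their call in at least 1 fit without 1 pool, and 21 lost it with the replicate block. Cd247 turned to 0.01 (adjusted p = 0.961) with the mean of all its probe sets, and with centring on ubiquitous genes Pacsin1 turned to 0.28, Sdha to 0.20 and Tmsb10 to 0.23, none of them called. The cause of the Cd247 change was not tested, beyond the opposite probe sets given above. Apart from the ubiquitous genes themselves, no list median changed sign with that centring, and mitosis had 23 genes lower and 2 higher. The limits are 3 pools a group, wider spread among granulocyte pools, and tissue, genotype and cell type that differ together. Levels near the lower quartile carry no order.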
